A study of Mus musculus with 11 samples.

Results

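The stellate ganglion, a sympathetic ganglion of the lower neck, yielded neurons in several transcriptional classes, and the pair of largest classes, cluster 1 and cluster 2 of the authors' annotation, is compared here gene by gene at the same number of counts per cell. Cluster 1 held 388 and cluster 2 held 335 of the 878 annotated cells. Each cell was thinned at random to 15000 of its counts and cells with fewer were dropped, which kept 367 cells of cluster 1 and 323 of cluster 2. The kept cells of cluster 1 numbered 146 in Set 1, 133 in Set 2 and 88 in Set 3, and those of cluster 2 numbered 136, 106 and 81.

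All cells came from 6 male C57BL/6J mice aged 6 to 8 weeks, with no genetic change named. Every mouse carried 2 retrograde tracers, injected 3 days earlier: CTB-555 into interscapular brown fat (iBAT) and CTB-488 into the forelimb. Thus tracer injection was common to both clusters and no untreated animal enters the comparison. Ganglia of 2 mice were pooled for each of 3 sets, and the set is the replicate (n = 3). Single cells were sorted into 11 plates, 4 each for Sets 1 and 2 and 3 for Set 3, and the 3' ends of their transcripts were counted.

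The table held 30518080 counts over 19444 genes, and plates held 2050165 to 3373157 counts. Plates reuse their well barcodes, and each of the 96 barcodes occurred in more than 1 plate. Summed levels of 9 noradrenergic neuron markers were 107 to 122 counts per 10000 over the sets of cluster 1 and 130 to 147 in cluster 2. All 9 had counts in both clusters, so both hold noradrenergic neurons by these markers. Summed markers of satellite glia and Schwann cells were 12.0 to 14.8 in cluster 1 and 12.3 to 14.9 in cluster 2, ranges that overlap, and 5 of the 7 tested glial markers did not differ past the threshold. The exceptions were Mbp at a log2 difference of 0.17 and Pmp22 at -0.21. The 8 endothelial markers summed to 0.986 to 1.32 in cluster 1 and 1.03 to 1.41 in cluster 2, nearly all of it Egfl7, while Cdh5 and Kdr were at 0 in both clusters.

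Sympathetic neurons make noradrenaline from tyrosine in a chain of enzymes that includes tyrosine hydroxylase and dopamine β-hydroxylase, load it into vesicles and take it back up after release. Many of them release a peptide as well. Neuropeptide Y is the peptide long associated with the sympathetic supply of blood vessels, and galanin is a further peptide of sympathetic and injured neurons. Subclasses of sympathetic neurons differ in peptides, growth factor receptors and ion channels.

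The 250 bases before the RefSeq transcription start (build GRCm38.p6) are printed for 5 genes on which the comparison turns: Npy, Gal and Chga, whose levels were above those of cluster 2 in each set of cluster 1, and Edn3 and Th, whose levels were below. Capitals mark TGACG, the core of the cAMP response element, and its reverse complement CGTCA, with overlapping matches both marked.
Npy, chr6:49822460-49822709, plus strand: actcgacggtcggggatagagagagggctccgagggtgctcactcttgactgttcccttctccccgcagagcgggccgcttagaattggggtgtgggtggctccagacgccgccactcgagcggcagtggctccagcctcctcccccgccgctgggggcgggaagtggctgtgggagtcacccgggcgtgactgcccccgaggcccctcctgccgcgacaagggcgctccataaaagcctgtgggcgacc
Gal, chr19:3414545-3414794, minus strand: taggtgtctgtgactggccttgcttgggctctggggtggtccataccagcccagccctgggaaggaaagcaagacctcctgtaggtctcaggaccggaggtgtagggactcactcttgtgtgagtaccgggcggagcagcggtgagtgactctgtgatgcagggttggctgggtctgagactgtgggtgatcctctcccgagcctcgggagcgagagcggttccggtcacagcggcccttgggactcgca
Chga, chr12:102554691-102554940, plus strand: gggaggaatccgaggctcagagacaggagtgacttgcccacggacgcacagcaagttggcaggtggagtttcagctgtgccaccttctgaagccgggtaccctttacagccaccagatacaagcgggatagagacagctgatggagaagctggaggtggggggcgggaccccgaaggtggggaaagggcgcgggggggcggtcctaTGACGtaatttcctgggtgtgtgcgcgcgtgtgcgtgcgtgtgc
Edn3, chr2:174760369-174760618, plus strand: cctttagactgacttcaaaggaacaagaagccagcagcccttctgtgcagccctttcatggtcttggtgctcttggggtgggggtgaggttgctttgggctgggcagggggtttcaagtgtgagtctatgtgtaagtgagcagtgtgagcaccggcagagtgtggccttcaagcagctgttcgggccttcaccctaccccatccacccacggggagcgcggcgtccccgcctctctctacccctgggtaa
Th, chr7:142899996-142900245, minus strand: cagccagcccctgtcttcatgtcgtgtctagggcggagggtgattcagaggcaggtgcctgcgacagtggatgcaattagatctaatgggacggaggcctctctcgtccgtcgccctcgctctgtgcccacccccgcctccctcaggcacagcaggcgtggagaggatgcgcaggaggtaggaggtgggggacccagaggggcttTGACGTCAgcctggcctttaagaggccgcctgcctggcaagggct
The Th window held the full palindrome and the Chga window a single core, while no match lay in the windows of Npy, Gal and Edn3. Over all genes the core did not separate the directions of change. It lay in 17.9% of 27025 promoter windows of this length, in 29.5% of the 7432 that belong to tested genes, in 26.2% of those of genes higher in cluster 1 and in 27.4% of those of genes lower in cluster 1.

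Cells of cluster 2 carried more counts and, before thinning, more detected genes. Mean counts per cell were 27831, 31045 and 29041 in Sets 1, 2 and 3 of cluster 1 and 38682, 46382 and 36317 in cluster 2. The ratio of cluster 2 to cluster 1 was 1.39, 1.49 and 1.25, or 1.38 ± 0.122 (SD, n = 3). All 3 sets pointed the same way, and the exact paired permutation p of 0.25, two-sided, is the smallest that 3 sets allow. Before thinning, the difference in detected genes per cell, cluster 1 minus cluster 2, was -837 ± 318 (SD, n = 3 sets, exact p = 0.25). At equal depth the difference was -74.0, -62.1 and 50.7 genes in Sets 1, 2 and 3, a mean of -28.5 with an SD of 68.8 (exact p = 0.5, two-sided). The number of genes per cell therefore did not differ beyond the spread between sets once the counts were equal.

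**Figure D1:**
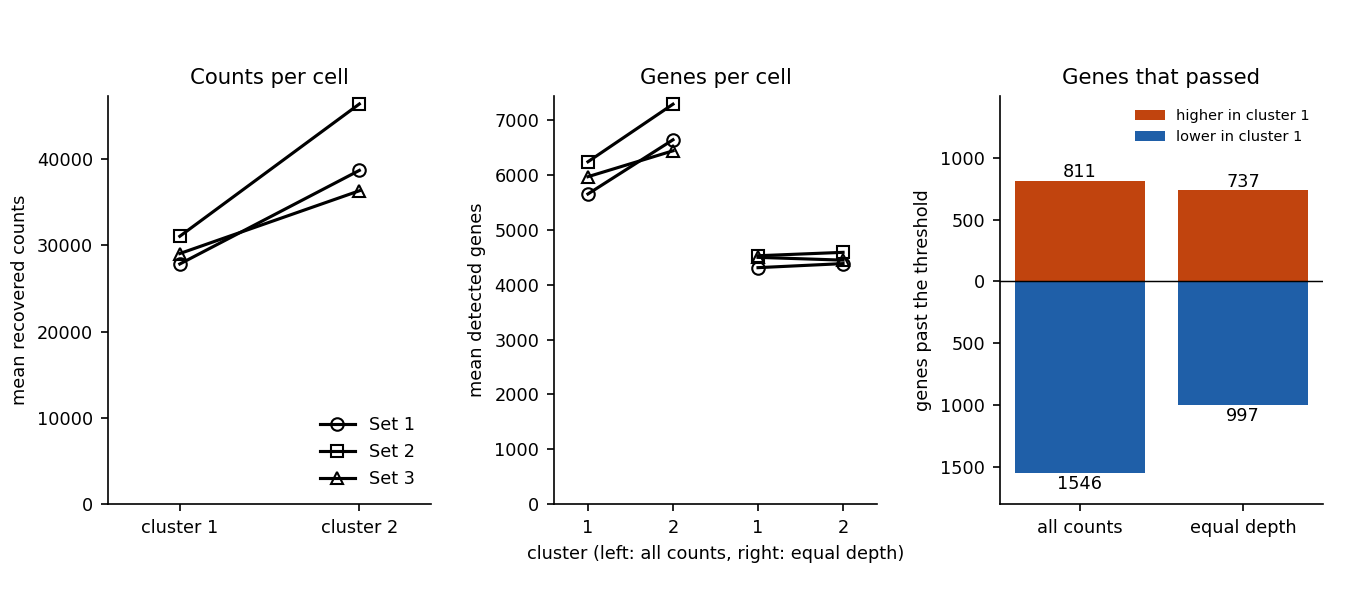
Left, mean recovered counts per cell in each set, joined between clusters; middle, mean detected genes per cell with all counts and at 15000 counts per cell; right, the number of genes past the threshold in each direction with all counts and at equal depth. Counts per cell rise from cluster 1 to cluster 2 in all 3 sets, the genes per cell come together at equal depth, and the genes lower in cluster 1 go from 1546 to 997.

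Each gene was then compared between the clusters with limma, on log2(1 + counts per 10000) averaged over the cells of a set and cluster, with the set as a block. A log2 difference below is cluster 1 minus cluster 2 on that scale, which compresses differences at low levels, and a gene passed at a Benjamini-Hochberg adjusted p under 0.05. At equal depth 1734 of 10377 genes passed (16.7%), 737 higher in cluster 1 (7.1%) and 997 lower (9.61%). Without thinning the same cells gave 2357 of 10388 (22.7%), 811 higher (7.81%) and 1546 lower (14.9%). Of these calls 1578 were shared between both depths, with 0 in opposite directions. Genes that passed only without thinning numbered 769, of which 601 were lower in cluster 1, and 147 passed only at equal depth. Because the authors formed the clusters from these same cells, a p-value here does not say that the classes exist. For most genes it sets the mean difference over the sets against a spread taken mostly from all genes. The median over genes was 172 degrees of freedom. For such genes the p-value is therefore not a measure of how well 1 gene repeats over its sets. Genes of outlying spread, among them Npy, Gal and Crip1, rest more on their own spread over the sets.

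Most differences were small. The median absolute log2 difference of genes that passed was 0.169, 123 reached 0.5 and 21 reached 1, with 15 of those higher and 6 lower in cluster 1. All 3 sets pointed one way for 1694 of the 1734. For 1088 of the 1734 the levels of the 3 sets of one cluster did not overlap those of the other. Both counts are of genes already called and stand without the share over all genes tested, so neither is read as support. With thinning to 10000, 20000 or 30000 counts and a repeat draw at 15000, 928 genes passed at every depth in the same direction, 418 higher and 510 lower.

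The largest difference belonged to Npy (chr6:49822710-49829507, GRCm38, plus strand), which encodes neuropeptide Y. Its level was 200, 182 and 171 counts per 10000 in Sets 1, 2 and 3 of cluster 1 and 29.2, 13.01 and 28.0 in cluster 2. Cluster 2 was lowest in Set 2, and the clusters did not overlap. The mean was 184 ± 14.3 (SD, n = 3) against 23.4 ± 9.01, which is 7.88-fold higher, and cluster 1 was higher in 11 of 11 plates. Plates, here and below, are parts of the same 3 pools and not further replicates. The log2 difference was 3.93 (SE 0.459) with set values of 3.39, 4.90 and 3.49, and its adjusted p of 0.0539 narrowly missed the threshold. Levels in single cells, here and below, describe the clusters and are not separate support, because the clusters were formed from these same cells. In cluster 1, 10% of cells lay below 108 and the median was 190, while cluster 2 had a median of 9.33, 10% of cells above 58.7 and a highest cell at 237. Only 0.929% of all cluster 2 cells exceeded the cluster 1 median.

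Gal (chr19:3409915-3414544, minus strand), which encodes galanin, had the largest difference among the genes that passed. Its level was 60.4, 44.1 and 56.8 in the sets of cluster 1 and 11.8, 5.47 and 11.2 in cluster 2. Both clusters were lowest in Set 2. The fold was 5.65 and the log2 difference 2.48 (SE 0.222, adjusted p = 0.0339). Every cluster 1 cell had a Gal count, with a median of 52.0 against 6.00 in cluster 2.

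Crip1, which encodes a small LIM-domain protein, was at 26.3, 26.4 and 22.2 in cluster 1 and 7.26, 5.13 and 8.01 in cluster 2. Its log2 difference was 2.22 (SE 0.228, adjusted p = 0.0432), and 14.6% of all cluster 2 cells against 0% of cluster 1 cells had no count for it. Both calls are close to the threshold: Gal lost its call in 3 and Crip1 in 9 of 20 alternative settings, with adjusted p values up to 0.284 without Set 3 for Gal and up to 0.369 without Set 1 for Crip1.

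A second group was close to absent from cluster 2. Fst (chr13:114452290-114458951, minus strand), which encodes the activin-binding protein follistatin, was at 2.28, 2.82 and 2.65 in cluster 1 and at 0.0441, 0.0189 and 0 in cluster 2. That was 1412 counts against 12, a 123-fold difference, and the log2 difference was 1.60 (SE 0.052, adjusted p = 1.45e-67). Pcp4, a calmodulin-binding protein, was at 3.11, 3.79 and 2.52 against 0.0833, 0.0566 and 0.0988 (39.5-fold). Sctr, the secretin receptor, was at 1.502, 1.66 and 2.16 against 0.0539, 0.0377 and 0.0247 (45.7-fold). Cpne8, a copine, was at 1.86, 1.72 and 1.59 against 0.0686, 0.0566 and 0.0658 (27.1-fold). Set ranges did not overlap for any of these 4 genes, and all were higher in cluster 1 in 11 of 11 plates. Counts of Fst were found in 88.2% of cluster 1 cells and 3.15% of cluster 2 cells at equal depth. For reference, Vip, whose level was 52.9 in the 53 kept cells of cluster 4, had a count in 25.3% of cluster 1 and 19.7% of cluster 2 cells. A share of that size alone is not read as expression, and among the genes called below Ptger3, Kcnh8, Cacng5, Arc, Btg2 and Cdh8 had shares under 25.3% in both clusters, so their presence in either cluster is not claimed.

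Further genes higher in cluster 1 were present in cluster 2 as well, with counts in 55.1% of its cells for B230312C02Rik, 80.4% for S100a6, 93.7% for Bub3 and 99.4% for 6330403K07Rik. S100a6, a calcium-binding protein, was at 19.5, 15.1 and 14.4 against 7.12, 3.45 and 6.93 (log2 difference 1.63, SE 0.058). The uncharacterised 6330403K07Rik was at 12.2, 10.0 and 15.2 against 4.81, 3.65 and 6.49 (1.25). The long non-coding RNA B230312C02Rik (chr2:180370491-180385885, minus strand) was at 8.34, 7.81 and 11.4 against 1.81, 1.06 and 2.56, and it had the smallest p of all genes (1.97, SE 0.054, adjusted p = 5.58e-78). Bub3, a mitotic checkpoint protein, was at 6.73, 5.85 and 9.30 against 1.80, 1.53 and 2.26 (1.34, SE 0.054). The sets of each cluster stayed apart for all 4 genes.

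In the other direction, Fxyd2 (chr9:45399669-45410278, plus strand), a regulator of the sodium pump, differed most among genes lower in cluster 1. It was at 8.52, 7.27 and 6.77 in cluster 1 and 23.0, 22.2 and 18.9 in cluster 2, which is 2.84-fold lower (log2 difference -1.54, SE 0.046, adjusted p = 3.76e-73). Tm4sf4, a tetraspanin-like membrane protein, was at 4.24, 3.14 and 5.22 against 11.2, 9.94 and 13.6 (-1.32). Dmkn, dermokine, was at 0.580, 0.466 and 0.727 against 2.22, 2.32 and 2.79 (-1.16). Thy1, a surface glycoprotein of neurons and other cells, was at 3.26, 3.15 and 4.37 against 6.90, 7.77 and 7.14 (-1.08). Atp6v1b2, a subunit of the proton pump that acidifies vesicles and lysosomes, was at 7.83, 6.30 and 10.5 against 15.8, 14.4 and 24.0 (-1.06). Cyp2j12, a cytochrome P450, was at 0.393, 0.361 and 0.280 against 2.13, 2.06 and 2.70 (-1.27), and it belongs to a family of similar genes among which reads could be split. All 6 were lower in cluster 1 in 11 of 11 plates, with no overlap between the sets of either cluster. The genes with the largest differences were named among those that changed the same way in every set. Their agreement over sets and plates, here and above, is in part fixed by that choice and is not separate support.

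**Figure D2:**
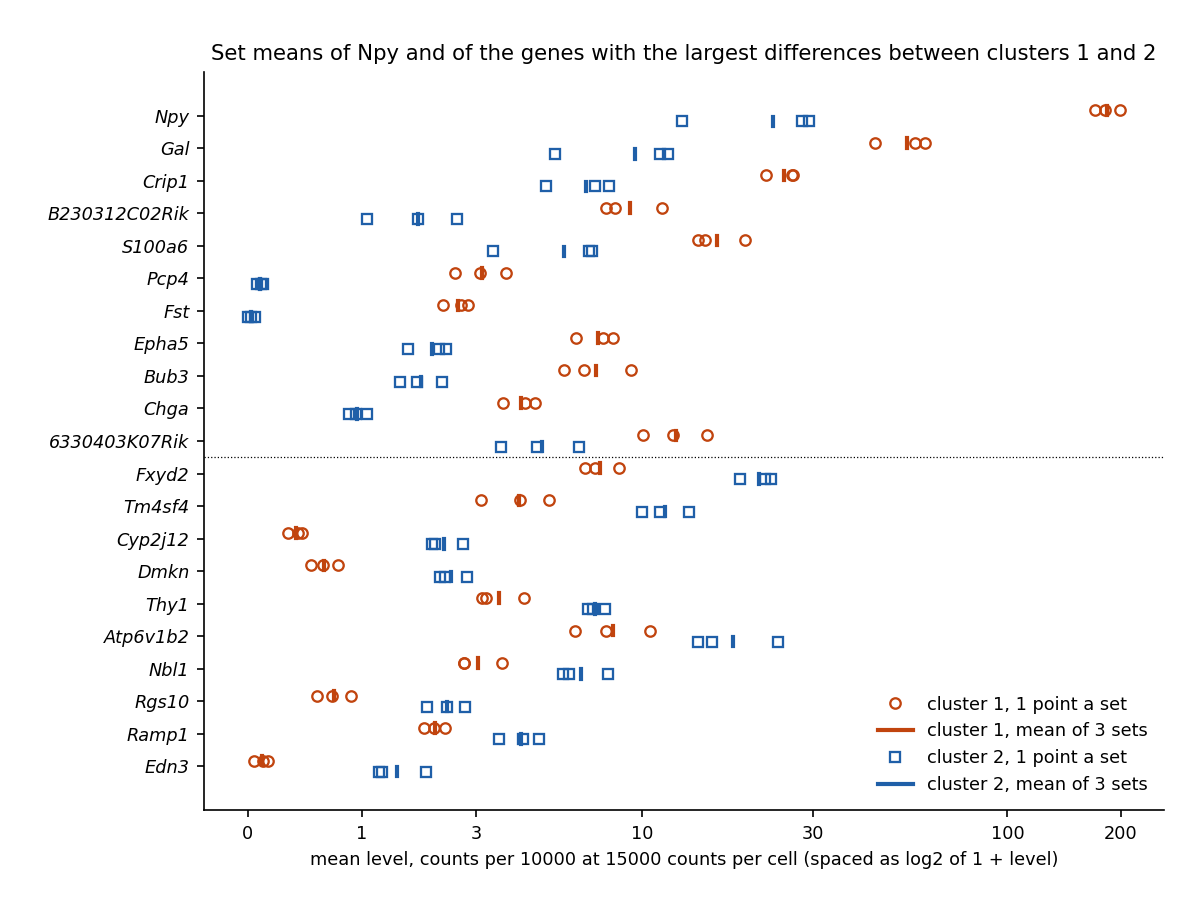
Mean level per set, in counts per 10000 at 15000 counts per cell, of Npy and the 10 genes in each direction with the largest differences among those that passed; open circles are cluster 1 sets, open squares cluster 2 sets and bars the mean of 3 sets, on an axis spaced as log2(1 + level). No gene shown has overlapping set ranges, and Fst in cluster 2 sits at or next to 0.

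The genes that make noradrenaline were mostly lower in cluster 1. Of 11 tested, 7 were lower and 1 was higher (63.6% and 9.09%, beside 9.61% and 7.1% of all genes). Their median log2 difference was -0.17 beside -0.005 over all genes tested. Th, tyrosine hydroxylase, the rate-limiting enzyme, was at 46.4, 39.2 and 63.1 in cluster 1 and 55.5, 53.6 and 82.2 in cluster 2. The clusters overlap across sets because Set 3 is high in both, but cluster 1 was the lower one in each set and in 11 of 11 plates (1.29-fold, log2 difference -0.37, SE 0.037, adjusted p = 2.04e-16). Dbh, dopamine β-hydroxylase, was at 21.2, 23.2 and 22.2 against 27.1, 31.4 and 25.8 (-0.32, SE 0.042) without overlap. Ddc, which makes dopamine, was 1.15-fold lower (-0.20) and Cyb561, which passes electrons to Dbh in the vesicle, 1.32-fold lower (-0.39). Pcbd1, which recycles the tetrahydrobiopterin cofactor (-0.30), and the copper transporters Slc31a1 (-0.16) and Atp7a (-0.17) were the other members that fell short of cluster 2. The exception was Qdpr, the reductase that regenerates tetrahydrobiopterin, at 5.84, 5.30 and 5.71 against 4.37, 3.87 and 4.75 (0.33). Gch1, Pts and Spr, which make that cofactor, did not pass, at 0.04, -0.0036 and -0.09. Without Set 2, 4 members were lower instead of 7. Fewer genes passed altogether in fits without a set. Over all genes, 585 of 10495 were lower and 498 higher without Set 1. These numbers were 635 and 528 of 10253 without Set 2, and 969 and 641 of 10346 without Set 3. Member counts without a set, here and below, are to be read beside these totals.

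Storage, reuptake and breakdown followed unevenly. Of 7 tested members 4 were lower and 1 higher in cluster 1 (57.1% and 14.3%, beside 9.61% and 7.1% of all genes). Their median was -0.30. Slc6a2, the noradrenaline reuptake transporter, was at 16.5, 20.04 and 13.3 against 22.7, 27.1 and 15.6 (-0.37, SE 0.044). Slc18a2, the vesicular monoamine transporter of neurons, was at 4.08, 4.96 and 4.72 against 4.35, 5.71 and 4.19 and did not pass (-0.06, SE 0.052, adjusted p = 0.503), with Set 3 opposite to the other sets. Slc18a1, the transporter better known from endocrine cells, was at 0.119, 0.0551 and 0.0379 in cluster 1 and 1.14, 1.03 and 1.33 in cluster 2, a 16.5-fold difference (-0.84, SE 0.044). The monoamine oxidases parted: Maoa was at 8.61, 8.34 and 9.01 against 10.4, 11.1 and 13.6 (-0.41), and Maob at 5.21, 5.04 and 6.34 against 2.54, 2.84 and 3.28 (0.76, SE 0.053). Akr1b3, an aldose reductase, was also lower (-0.30). The sign of Slc18a2 turned positive with thinning to 20000 counts.

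**Figure D3:**
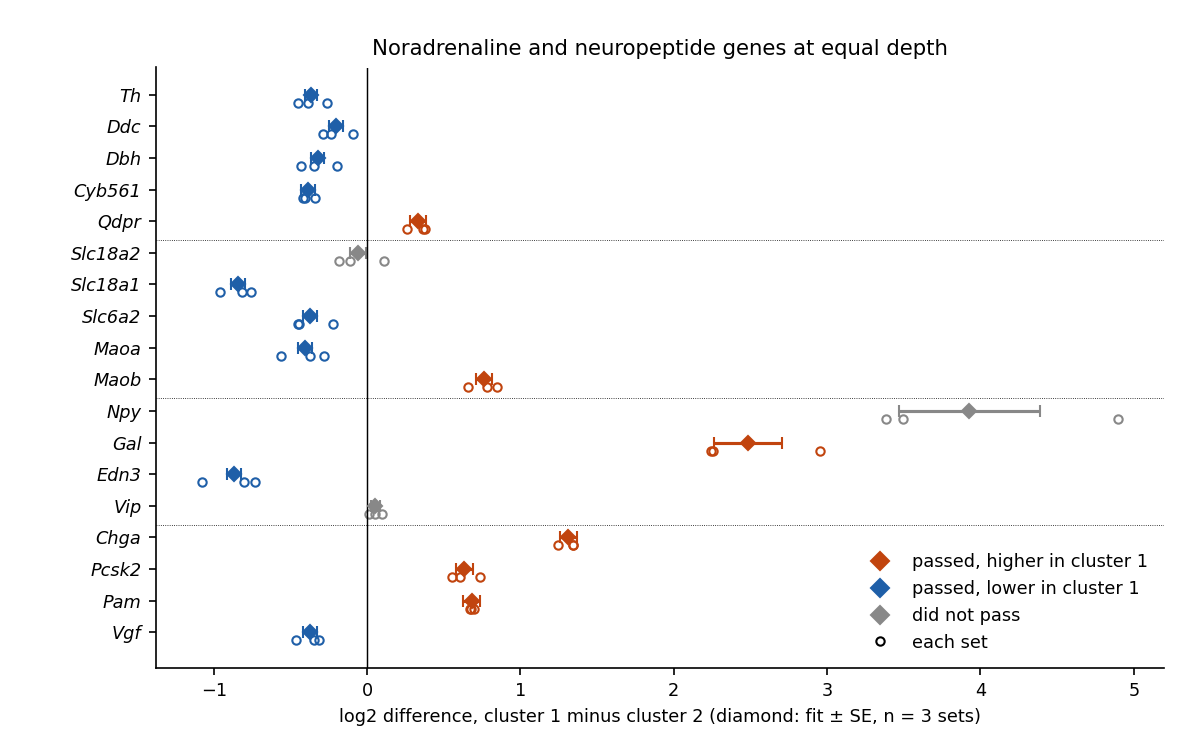
Log2 difference, cluster 1 minus cluster 2, of 18 genes of noradrenaline synthesis, storage and breakdown, neuropeptides and secretory granules; diamonds are fitted values with their SE (n = 3 sets), open circles the single sets, and colour the outcome of the test. Th, Dbh and Slc6a2 lie left of 0, Gal and Chga right of 0, and Npy lies farthest right with the widest spread between sets.

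Among the 25 listed neuropeptides, 18 were in the table and 7 had levels that allowed a test. Of these 1 was higher (Gal) and 1 lower (Edn3), each 14.3%, beside 7.1% and 9.61% of all genes. Without Set 1, 2 were lower, and without Set 2, 2 were higher. Edn3 (chr2:174760619-174784042, plus strand), which encodes the vasoactive peptide endothelin 3, was at 0.0959, 0.1303 and 0.0379 in cluster 1 and 1.22, 1.95 and 1.27 in cluster 2. This was a 16.8-fold difference (-0.87, SE 0.046, adjusted p = 1.07e-36), and 60.2% of cluster 2 cells against 11.3% of cluster 1 cells had a count. Besides Npy, the members that did not pass were Vip (0.05), Cartpt (0.01), Agrp (-0.07) and Scg2 (0.03). Sst was below the filter, at 0.0828 in cluster 1 and 0.00419 in cluster 2, and Penk was not analysed here. In the 53 cells of cluster 4, Npy was at 3.45, Gal at 2.17 and Edn3 at 1.56, values given beside the others without a test.

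Peptides are cut from precursors and packed into dense-core granules, and the genes for this work differed in both directions. Of 16 tested, 6 were higher and 4 lower in cluster 1 (37.5% and 25%, beside 7.1% and 9.61% of all genes). Their median was 0.02. Chga (chr12:102554969-102565028, plus strand), chromogranin A, a granule core protein, was at 4.39, 3.71 and 4.71 against 0.931, 0.849 and 1.06. The groups did not overlap, and the difference was 4.51-fold (1.31, SE 0.055, adjusted p = 1.58e-53). Pam, which amidates the ends of peptides including neuropeptide Y and galanin, was at 3.66, 4.49 and 3.55 against 1.98, 2.57 and 1.91 (0.68). Pcsk2, a prohormone convertase, was at 3.07, 3.26 and 2.18 against 1.43, 1.74 and 1.19 (0.63). Chgb (0.47), Pcsk1 (0.14) and Syt4 (0.25) were the other higher members. Lower in cluster 1 were Vgf, a granin-like precursor, at 0.338, 0.376 and 0.341 against 0.701, 0.981 and 0.749 (-0.37), the carboxypeptidase Cpe (-0.23), the granule priming factor Cadps (-0.37) and Ptprn (-0.24).

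Receptors for transmitters and peptides differed in both directions. Of 12 tested peptide and hormone receptors 6 were lower and 1 higher in cluster 1, with a median of -0.06. These shares were 50% and 8.33%, beside 9.61% and 7.1% of all genes. Ramp1, the partner protein of the CGRP receptor, was at 2.31, 2.11 and 1.92 against 4.87, 3.60 and 4.34 (-0.88, SE 0.056). Cckar, a cholecystokinin receptor, was at 0.0685, 0.0902 and 0.174 against 0.588, 0.642 and 0.996 (-0.56). Agtr1a, the angiotensin II receptor, was at 0.913, 0.762 and 1.02 against 1.04, 1.13 and 1.31 (-0.20), and Ptger3 (-0.13), Adcyap1r1 (-0.17) and Npr2 (-0.16) were lower as well. Ednra, an endothelin receptor, was higher in cluster 1, at 0.178, 0.221 and 0.227 against 0.0392, 0.151 and 0.0988 (0.11). Npy1r was at 0.05 and did not pass. Members higher in cluster 1 numbered 0 without Set 1 and 2 without Set 3.

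Adra2a, the α2A adrenergic receptor that restrains noradrenaline release, was at 0.205, 0.291 and 0.174 in cluster 1 and 0.917, 1.16 and 0.543 in cluster 2. It was 3.91-fold lower in cluster 1 without overlap (-0.54, SE 0.046). For acetylcholine, which drives these neurons from the spinal cord, the muscarinic receptor Chrm2 was at 1.06, 1.18 and 1.09 against 0.475, 0.597 and 0.551 (0.42), and the nicotinic subunit Chrna3 was lower, at 4.45, 4.49 and 6.27 against 5.48, 5.78 and 6.62 (-0.23). The other 4 tested acetylcholine receptor genes did not pass.

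Receptors for neurotrophic factors, which keep sympathetic neurons alive and guide their growth, included 6 lower and 2 higher members among 12 tested. These shares were 50% and 16.7%, beside 9.61% and 7.1% of all genes. The median was -0.06, and 1 member was higher with any 1 set left out. Gfra2, the neurturin co-receptor, was at 0.0502, 0.0902 and 0.0303 in cluster 1 and 0.858, 1.11 and 1.01 in cluster 2, a 17.4-fold difference (-0.81, SE 0.043, adjusted p = 5.26e-41). Gfra3, the artemin co-receptor, went the other way, at 0.429, 0.326 and 0.667 against 0.00490, 0.00629 and 0 (0.39, SE 0.030). Ret, the kinase both co-receptors signal through, was at 0.804, 1.30 and 0.621 against 1.09, 2.13 and 0.798 (-0.28), with overlap between sets and the same direction in 10 of 11 plates. Ngfr, the p75 receptor, was at 4.40, 5.31 and 8.83 against 5.81, 7.34 and 10.9 (-0.37), and Lifr, the LIF receptor, at 0.228, 0.316 and 0.182 against 0.691, 0.975 and 0.535 (-0.42). Ntrk3 was at 0.02 and did not pass.

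Regulators of identity differed without a common direction. Of 22 tested sympathetic transcription factors 7 were higher and 5 lower in cluster 1 (31.8% and 22.7%, beside 7.1% and 9.61% of all genes). Their median was 0.07, and 3 were lower without Set 1 and 2 without Set 2. Ebf1 was at 1.02, 1.17 and 0.924 against 1.83, 2.08 and 1.83 (-0.51) and Tlx2 at 1.51, 1.41 and 2.73 against 2.01, 1.81 and 3.44 (-0.29). Sox4 was at 0.685, 0.697 and 0.780 against 0.377, 0.340 and 0.362 (0.30) and Hmx1 at 1.22, 1.09 and 1.23 against 0.642, 0.868 and 0.774 (0.30). Phox2a, a determinant of noradrenergic identity, was higher (0.23).

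Hox genes, which record a cell's position along the body axis, were tested for 6 members. Of these 3 were higher in cluster 1 (50%, beside 7.1% of all genes), 0 lower and 3 did not pass. Hoxc9 was at 0.352, 0.471 and 0.50 in cluster 1 and 0.0245, 0.00629 and 0 in cluster 2, a 42.9-fold difference (0.37, SE 0.029, adjusted p = 1.5e-24), and 33.9% of cluster 1 cells against 1.05% of cluster 2 cells had a count. Hoxc8 was at 0.507, 0.747 and 0.682 against 0.0833, 0.0818 and 0.0905 (7.57-fold, 0.47). Hoxc6 was at 0.466, 0.476 and 0.477 against 0.333, 0.296 and 0.346 (0.13, adjusted p = 0.0148), and lost its call in 7 of 19 alternative settings, among them a repeat draw at the same depth and the fits without Set 1 or Set 2. The neighbours Hoxc4 and Hoxc5 did not pass, at 0.07 and -0.02. The folds of Hoxc6, Hoxc8 and Hoxc9, which lie in this order on the chromosome, were 1.46, 7.57 and 42.9, given without a test of their order.

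For potassium channels, which set excitability, 12 of 29 tested were lower and 2 higher, with a median of -0.04. These shares were 41.4% and 6.90%, beside 9.61% and 7.1% of all genes. Kcnmb4, an accessory subunit of the calcium-activated BK channel, was the main exception, at 1.53, 1.63 and 1.30 against 0.392, 0.421 and 0.222 (0.80, SE 0.050), while the BK pore gene Kcnma1 was lower (-0.13). Kcnt1, a sodium-activated channel, was at 0.142, 0.180 and 0.152 against 0.466, 0.585 and 0.337 (-0.28), Kcnh8 at 0.0183, 0.0301 and 0.00758 against 0.132, 0.233 and 0.115 (-0.15), and the channel-interacting protein Kcnip4 at 1.22, 0.922 and 1.55 against 1.69, 1.65 and 2.21 (-0.37). Without Set 2, 7 potassium channel genes were lower, beside 635 of 10253 genes tested in that fit.

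Among 30 tested sodium, calcium, HCN and TRP channel genes 8 were lower and 2 higher. The shares were 26.7% and 6.67%, beside 9.61% and 7.1% of all genes. Scn3b, a sodium channel β subunit, was at 1.30, 1.64 and 1.73 against 0.515, 0.591 and 0.626 (0.65), and Cacnb3 was the other higher member (0.28). Trpm2, a heat- and redox-sensitive channel, was at 0.311, 0.331 and 0.273 against 0.765, 0.824 and 0.617 (-0.36). Cacng2 and Cacng5, listed with the calcium channels by their gene names, were at -0.25 and -0.16. Without Set 1, 4 members of this list were lower. Of the sodium pump and its small Fxyd regulators, 5 of 10 tested were lower and 2 higher. That is 50% and 20%, beside 9.61% and 7.1% of all genes. The β subunits Atp1b1 (-0.24) and Atp1b3 (-0.28) were lower along with Fxyd2 and Fxyd6 (-0.20). Fxyd5 was at 4.29, 4.84 and 2.48 against 1.28, 1.34 and 0.708 (1.13, SE 0.056) and Fxyd7 at 8.38, 9.53 and 7.52 against 6.52, 7.23 and 4.98 (0.37), so members of this regulator family differed in opposite directions.

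Calcium-binding proteins included some of the largest differences. Of 18 tested 6 were higher and 3 lower in cluster 1 (33.3% and 16.7%, beside 7.1% and 9.61% of all genes). Beside S100a6 and Pcp4, the neuronal calcium sensor Ncald was at 11.6, 10.1 and 10.6 against 4.63, 3.65 and 4.30 (1.23, SE 0.049), and 97.0% of all cluster 1 cells exceeded the cluster 2 median. S100a1 was at 3.20, 2.72 and 3.16 against 1.38, 0.862 and 1.56 (0.89). The lower members were Necab1 (-0.30), Calm2 (-0.13) and Calm3 (-0.16), and 1 was lower without Set 2.

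Of 36 tested genes of the transmitter release machinery 15 were lower in cluster 1 and 6 higher. That is 41.7% and 16.7%, beside 9.61% and 7.1% of all genes. Their median was -0.08, and 3 were higher without Set 2. Snap25, a core fusion protein, was at 19.6, 16.6 and 25.03 against 24.1, 21.6 and 36.1 (-0.39, SE 0.042), and the sets overlapped because Set 3 was high in both clusters. Cplx1, complexin 1, which clamps fusion, was at 2.13, 2.12 and 2.73 against 4.04, 4.65 and 4.67 (-0.75), and Rph3a, rabphilin, at 0.311, 0.351 and 0.364 against 0.931, 0.969 and 0.774 (-0.46). Syn2, synapsin II, which tethers vesicles, was the largest exception, at 15.0, 17.2 and 17.7 against 8.55, 9.86 and 9.92 (0.77, SE 0.045).

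Of 34 tested adhesion molecules 14 were higher in cluster 1 and 4 lower (41.2% and 11.8%, beside 7.1% and 9.61% of all genes). Their median of 0.01 was close to that of all genes, and 2 were lower without Set 2. Pcdh7, a protocadherin, was at 1.16, 1.63 and 1.13 against 0.0294, 0.0503 and 0.0329 (34.9-fold, 1.03, SE 0.046). Tenm2, a teneurin, was at 1.47, 1.52 and 1.58 against 0.265, 0.327 and 0.305 (0.87). Cadm1, a synaptic adhesion molecule, was at 7.52, 7.42 and 8.89 against 3.70, 4.43 and 5.35 (0.78), and Pcdh9 at 0.868, 1.08 and 1.29 against 0.225, 0.358 and 0.206 (0.59). Members lower in cluster 1 included Tenm4 (-0.56), Cdh8 (-0.13) and Cadm2 (-0.13), so the teneurins Tenm2 and Tenm4 differed in opposite directions.

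Axon guidance genes, receptors and ligands together, split as well, with 6 of 25 tested genes in each direction (24% each, beside 7.1% higher and 9.61% lower over all genes). Epha5, an ephrin receptor, was at 8.22, 7.64 and 6.35 against 2.20, 2.35 and 1.65 (3.58-fold, 1.47, SE 0.053). The semaphorin co-receptors took opposite sides: Nrp1 was at 0.740, 0.977 and 0.742 against 0.221, 0.352 and 0.263 (0.45) and Nrp2 at 0.1005, 0.165 and 0.0682 against 0.520, 0.579 and 0.403 (-0.36). Ntng1, netrin G1, was at 0.877, 0.792 and 0.576 against 1.96, 2.43 and 1.45 (-0.73). Of 38 tested cytoskeletal genes 8 were higher and 6 lower (21.1% and 15.8%, beside 7.1% and 9.61% of all genes), and 3 were lower without Set 2. Nefm, the middle neurofilament chain, was at 3.03, 3.29 and 2.89 against 1.47, 1.63 and 1.47 (0.68), while its partners Nefl (-0.16) and Nefh (-0.29) were lower. Tubb5 was at 23.6, 25.5 and 20.9 against 16.9, 17.7 and 15.9 (0.46) and Gap43, the growth cone protein, at 21.9, 18.9 and 19.8 against 28.4, 23.8 and 28.7 (-0.42). Peripherin (Prph) did not pass, at 19.5, 19.2 and 27.7 against 19.3, 18.4 and 26.9 (0.04).

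Of 68 tested nuclear genes for the respiratory chain and ATP synthase, 29 were lower in cluster 1 (42.6%, beside 9.61% of all genes), 1 was higher and 38 did not pass, with a median of -0.11 and set medians of -0.12, -0.08 and -0.18. Cox6c, a cytochrome c oxidase subunit, was at 11.2, 11.3 and 9.20 against 17.3, 15.5 and 14.2 (-0.54, SE 0.046), and Atp5e, of ATP synthase, at 9.26, 8.20 and 7.24 against 12.9, 11.2 and 10.0 (-0.43). The complex I subunits Ndufv3 and Ndufa1 were both at -0.38, and the exception was Ndufs4 (0.26). Of the transcripts encoded in the mitochondrial genome 0 of 8 passed by limma (3 had an unadjusted p under 0.05), while limma with voom weights called 2 higher and 1 lower, and their differences ran from mt-Co1 at -0.09 to mt-Nd6 at 0.12. Without thinning 41 nuclear members were lower, beside 1546 of 10388 genes tested. Without Set 1 at equal depth 19 were lower, beside 585 of 10495.

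Of 77 tested cytosolic ribosomal protein genes, which build the translation machinery, 22 were higher in cluster 1 (28.6%, beside 7.1% of all genes), 0 were lower and 55 did not pass, with a median of 0.05. Rpl4 was at 7.87, 8.40 and 7.24 against 6.69, 6.23 and 6.09 (0.29, SE 0.049) and Rps19 at 8.47, 7.66 and 6.11 against 7.06, 5.79 and 5.13 (0.27), with Rps3 (0.26) and Rps14 (0.25) alike. The 22 differences lay between 0.15 and 0.29 (Rpl4), and these genes have many near-identical pseudogenes among which reads could be split. Without Set 2, 12 were higher, beside 528 of 10253 genes tested, and without Set 3, 1 was lower, beside 969 of 10346.

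**Figure D4:**
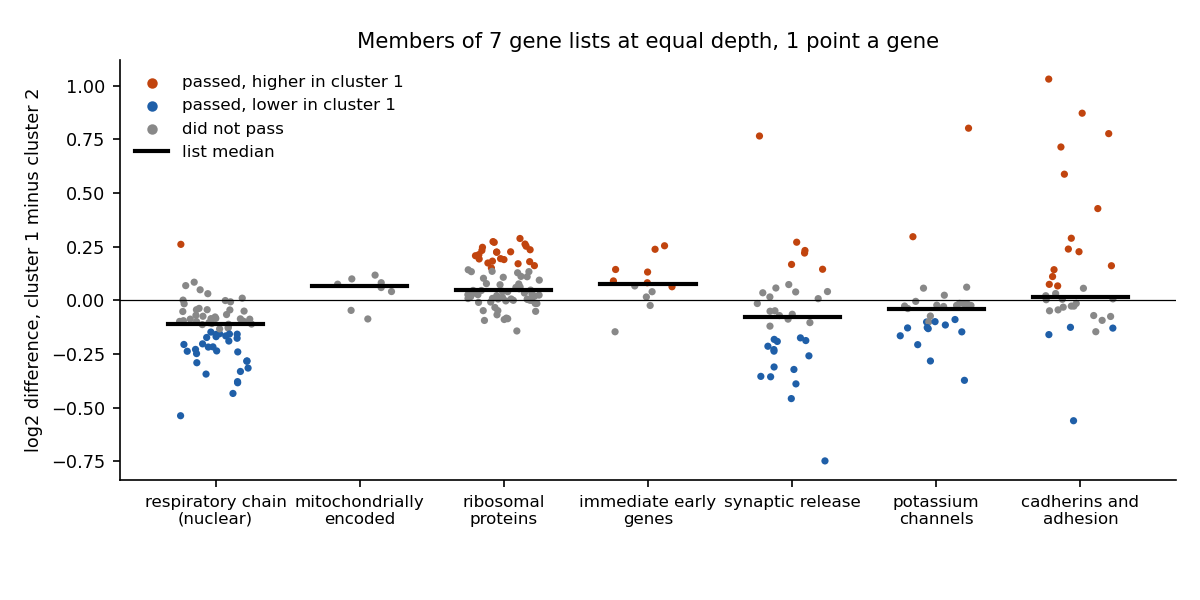
Log2 difference, cluster 1 minus cluster 2, of every tested member of 7 lists, 1 point a gene, coloured by the outcome of the test, with black bars for list medians. The nuclear respiratory chain genes lie mostly below 0 with 29 of 68 lower in cluster 1, the 8 mitochondrially encoded genes straddle 0, and the ribosomal protein genes include 22 higher and 0 lower members.

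Cholesterol synthesis had 5 higher and 1 lower among 23 tested (21.7% and 4.35%, beside 7.1% and 9.61% of all genes), with 3 higher without Set 1 or Set 2 and 2 lower without Set 2 or Set 3. Acat2 was at 4.69, 4.47 and 7.20 against 3.10, 2.96 and 5.36 (0.46), Fdft1 at 0.29 and Mvd at 0.23, with Fdps (0.16) and Nsdhl (0.15). Of 12 tested immediate early genes, which respond to activity and to tissue handling, 7 were higher (58.3%, beside 7.1% of all genes) and 0 lower. Klf6 was at 1.27, 1.24 and 1.56 against 0.819, 0.893 and 1.15 (0.25) and Dusp1 at 1.32, 0.997 and 2.33 against 0.873, 0.736 and 1.84 (0.24). Jun (0.13), Junb (0.14), Arc (0.06), Ier2 (0.09) and Btg2 (0.08) had smaller differences, and Fos (0.07) and Egr1 (-0.02) did not pass. The list's median was 0.01 in Set 1, 0.08 in Set 2 and 0.15 in Set 3, and 3 members were higher without Set 3 and 4 without Set 2. Junb did not pass without thinning, at any other thinning depth or with a repeat draw.

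Signalling genes were divided. Of 27 tested members of activin, BMP and TGF-β signalling 6 were higher and 6 lower, or 3 lower without Set 1 or Set 2. Each share was 22.2%, beside 7.1% higher and 9.61% lower over all genes. Beside Fst, its relative Fstl1 was higher, at 0.352, 0.426 and 0.439 against 0.0441, 0.0377 and 0.0576 (0.34), while Fstl5 was lower, at 0.489, 0.571 and 0.25 against 1.25, 1.81 and 0.8395 (-0.62), and so was the BMP antagonist Nbl1, at 2.72, 2.73 and 3.69 against 5.81, 6.03 and 7.92 (-0.98, SE 0.052). Of 52 tested G protein and cAMP genes 7 were higher and 8 lower, shares of 13.5% and 15.4% beside 7.1% and 9.61% of all genes. Without Set 2, 4 were higher. The largest difference of this list, that of Gnas (-1.13), did not pass by limma (adjusted p = 0.102). Rgs10, which shortens G protein signals, was at 0.872, 0.672 and 0.523 against 2.75, 2.36 and 1.98 (-0.96) and Rgs17 at 0.680, 0.967 and 0.674 against 0.284, 0.252 and 0.165 (0.45). Of 4 tested regulatory subunits of protein kinase A, Prkar1b (-0.06) and Prkar2a (-0.08) did not pass and the others were higher in cluster 1, Prkar1a at 7.04, 7.31 and 9.25 against 3.92, 5.11 and 6.01 (0.59) and Prkar2b at 0.260, 0.401 and 0.348 against 0.0196, 0.0126 and 0.00823 (0.30).

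Axon injury and growth genes, of interest because tracer had been injected into both targets, had 5 higher and 4 lower among 16 tested. That is 31.25% and 25%, beside 7.1% and 9.61% of all genes. Ecel1 was at 0.963, 0.962 and 1.67 against 0.260, 0.1698 and 0.568 (0.63) and Gadd45g at 1.11, 1.20 and 1.57 against 0.882, 0.667 and 0.823 (0.33), with Gal, Klf6 and Jun as given above. Gap43, Stmn4 (-0.20), Cacna2d1 (-0.17) and Ddit3 (-0.13) were lower, and Atf3, the usual marker of axon injury, was too low to test, at 0.0259 in cluster 1 and 0.0160 in cluster 2. Whether injury took part in these differences was not tested. Of 20 imprinted genes 4 were higher and 2 lower (20% and 10%, beside 7.1% and 9.61% of all genes), and 4 were lower without Set 3. Nnat was at 0.639, 0.561 and 0.871 against 1.25, 1.09 and 1.95 (-0.42), and Peg3 (0.29), Rian (0.25) and Ndn (0.25) were higher. Gnas had the largest difference of the list (-1.13, mean levels 1.01 against 3.48) but did not pass by limma (adjusted p = 0.102).

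**Figure D5:**
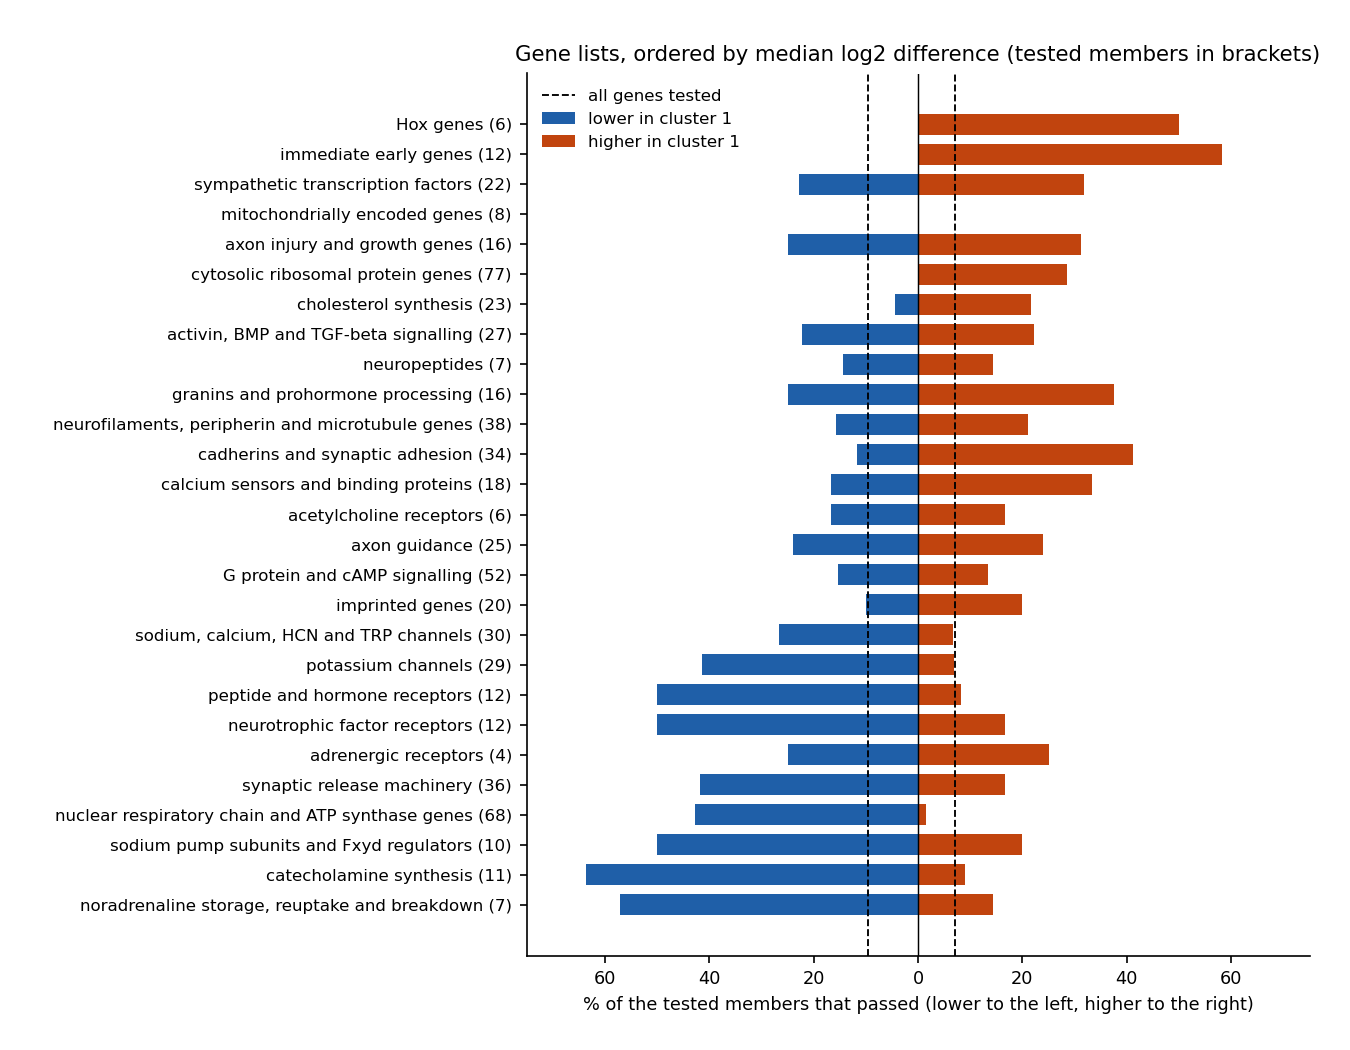
Share of the tested members of each of 27 gene lists that were higher (right) or lower (left) in cluster 1, in percent, with the number tested in brackets and lists ordered by median log2 difference; dashed lines mark the shares over all genes tested, 7.1% and 9.61%. Noradrenaline synthesis, storage and respiratory chain lists extend far to the left, ribosomal protein, immediate early and Hox lists only to the right.

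Summed markers of several other cell types did not overlap between the sets of the clusters. Mural cell markers summed to 0.617 to 1.36 counts per 10000 in cluster 1 and 0.258 to 0.354 in cluster 2, carried by Rgs5 (0.39), which neurons can also express. Brown adipocyte markers summed to 0.347 to 0.424 against 0.830 to 1.03, carried by Cidea (-0.46). Cholinergic sympathetic markers summed to 0.265 to 0.617 against 1.04 to 1.38, with Gfra2 lower in cluster 1, and macrophage markers to 0.0909 to 0.242 against 0.247 to 0.338, with Adgre1 lower (-0.11). Chromaffin cell markers summed to 5.28 to 6.03 against 3.17 to 3.55, with Chga higher and Slc18a1 lower. Ranges overlapped for sensory neuron markers, at 10.9 to 20.8 against 11.4 to 20.5, and for fibroblast markers, at 0.0303 to 0.1103 against 0.0165 to 0.0943. The part of such cells in the differences was not tested, beyond a fit without the 10% of cells richest in glial marker counts, in which 1464 genes passed, 625 higher and 839 lower.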

How the data were processed

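Sorted cells were lysed in plates, amplified together plate by plate and sequenced from their 3' ends, per the labels' protocols. The submitters' processing notes name the build GRCm38 and the tools STAR 2.5.3a, featureCounts 1.5.3, SAMtools 1.4.1 and Seurat. Neither the clustering settings nor the use of strand in counting is given in the sources used here. Deposited values are, from their spacing, the natural log of 1 plus counts per 10000 of a cell. Each non-zero value, 100% of them, gave a count within 0.001 of an integer. Cluster numbers come from the authors, and sort gate names, which carry no unit, were not used. Recovered counts were thinned to 15000 per cell, so 1 count is 0.667 per 10000.

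The comparison used limma 3.58.1 in R 4.3.3 (trend and robust options, two-sided, Benjamini-Hochberg, genes with a mean of at least 0.05 counts per 10000) on 6 set-by-cluster means, with the set as a block because both clusters of a set come from the same pooled mice. Deviations of the clusters correlated at 0.727 to 0.821 within a set and -0.68 to 0.0423 between sets. Because deviations over 3 sets sum to 0, the lower values between sets are in part built in. In simulated data with large planted changes and the same noise settings for every gene, the same fit recovered genes with known changes. That run does not show how the fit treats small changes or genes of uneven spread, and no rate of false calls is given here. Means and SDs are over sets, shares of cells with a count are means over sets, quantiles and shares of "all" cells are pooled over cells, and tests over sets were exact sign-flip permutations. No interval or call covers more than these 3 pools. No doublet caller was run. Other steps ran in Python 3.11.15 (matplotlib 3.10.9, scipy 1.17.1, pandas 2.3.3, numpy 2.4.6). Gene positions are from GENCODE M21, which matched 18737 of 19444 symbols, and promoters from RefSeq.

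The members, lists and tests were chosen with earlier results of these data known. Named genes are 26 fixed genes, up to 4 members of each list with the smallest p among those that passed, and in each direction the 10 genes with the smallest p and the 10 with the largest difference among those that passed in 3 of 3 sets. Some genes that this rule names are not reported here. Members of 5 or fewer in a count, and the outermost members of some lists, were named after their values were seen. Exons of Cacng2, Chrm2, Cox6c, Cyb561, Dusp1, Fdft1, Jun, Junb, Kcnip4, Kcnmb4, Nefm, Pam, Pcdh7, Pcsk2 and Syn2 overlap another gene in the table, so reads of these pairs may be mixed.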

Additional observations from a re-analysis of the deposited data

How the results depend on the processing

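The number of genes that passed depended on the settings more than the direction of single genes did. Beside 1734 genes, 878 passed with no filter on low genes (439 higher and 439 lower in cluster 1), 987 with a filter at 0.5 counts per 10000 (403 and 584), 525 with cluster 4 in the model (256 and 269) and 334 without the block for the replicate set (201 and 133). The filter at 0.5 left 792 of the 1734 untested, among them every Hox gene, so that list has no value there. Leaving out 1 set gave 1083 to 1610 genes, 498 to 641 higher and 585 to 969 lower, lowest without Set 1. Genes lower in cluster 1 numbered 1546 without thinning and 1532 without thinning in all cells. With median-of-ratios size factors 808 were higher and 832 lower, and with scaling that leaves out the 20 most abundant genes, an alternative added after seeing the data, 819 and 894, so the balance of directions also rests on the scaling. In every one of 20 alternatives 134 genes passed in the same direction, 81 higher and 53 lower. Over 112 named genes, 2106 of 2221 values kept direction and side of the threshold, 103 lost and 10 gained the call, and 2 turned sign, both for genes that did not pass: Slc18a2 with thinning to 20000 counts (0.0076) and Vip with thinning to 30000 counts (-0.013). Npy passed in 9 of 20 alternatives and its difference ran from 3.00 to 4.24. S100a6 lost its call in 3, and Fst in 1. Without the block 0 of the ribosomal, respiratory chain, immediate early and catecholamine synthesis members passed. For most genes the fit takes the spread mostly from all genes, which sets how small their p-values are. The median was 172 degrees of freedom where 3 pairs leave 2. With the robust option, genes of outlying spread rest more on their own. Npy, Gal and Crip1 are among these, with adjusted p-values far above those of genes with smaller differences. The causes of these shifts were not tested.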
